A study of Mus musculus with 2 samples.

Results

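The genes described here are the solute and drug transporters of tissue barriers, taken as every gene whose symbol begins with Slc22a, Slc47a, Slc4a, Slc6a, Slc16a, Slco, Abca, Abcb, Abcc or Abcg and a digit, with the erythrocyte anion exchanger Slc4a1 left out. They number 131 of the 33696 genes in the deposited matrices. The rule reads symbols alone. Of the 131, 108 had at least 1 unique molecular identifier (UMI, the tag that marks 1 captured transcript) in the cells retained here, 23 had none, 95 had a UMI in both libraries and 79 reached 30 UMIs. Of the rest, 29 had 1 to 29 UMIs. The 23 with none were Abca12, Abca16, Abcb5, Abcc8, Abcg5, Abcg8, Slc22a13, Slc22a16, Slc22a19, Slc22a22, Slc22a26, Slc22a27, Slc22a28, Slc22a30, Slc6a18, Slc6a19os, Slc6a21, Slco1a1, Slco1a6, Slco1b2, Slco6b1, Slco6c1 and Slco6d1, and for these the exact interval reaches up to 0.130 CPM (UMIs per 1000000 UMIs) in sham and 0.241 CPM in JVL-14. The symbol rule also takes in Slc4a1ap, which is no carrier, and Slc6a19os, an antisense transcript.

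Single cells of the dura mater, the tough outer meninx, came from female mice and were sequenced in droplets from the 3' end of their transcripts. Control mice had sham surgery (sham), with a delay before sampling that was not given in the sources used here. In the other group the jugular vein had been ligated 14 days before sampling (JVL-14). Both groups were handled alike, with cells of 2 meninges combined per well and a sort for viable single cells, and neither strain, age nor number of mice was given in the sources used here. Each group is 1 library, so no difference between sham and JVL-14 has a replicate check and none is tested. All intervals below are exact 95% intervals that cover counting error only.

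Barriers around the brain are built of cells joined by tight junctions, in the capillary endothelium, in the choroid plexus epithelium and in the arachnoid barrier layer under the dura. Because solutes cannot pass between such cells, their exchange depends on carriers in the cell membrane. ATP-binding cassette (ABC) pumps use ATP to move drugs, conjugates, sterols and phospholipids, mostly outward, whereas solute carriers (SLC) move organic ions, bicarbonate, monocarboxylates, hormones and amino acids along ion or solute gradients. P-glycoprotein and the breast cancer resistance protein are the best known pumps of brain capillaries, and the organic cation extruder MATE1, the product of Slc47a1, is best known from kidney and liver.

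The sham library held 33996641 UMIs in 5495 barcodes, of which 4671 were retained, and the JVL-14 library 18796260 UMIs in 3004 barcodes, of which 2471 were retained. The retained cells had a median of 4502 and 4530 UMIs. The libraries shared 2 barcodes, 1 of them among retained cells. Clustering with the transporters left out gave 38 clusters, 35 of which were named in 21 classes. Transporters made up 0.199% of the retained UMIs in sham and 0.162% in JVL-14, and 3 genes, Slc6a6, Slc4a10 and Slc47a1, held 36.8% and 35.2% of these. Choroid plexus and pineal cells came from the sham library alone (80 and 52 cells), although without doublet removal the pineal class had 59 and 15 cells, and with at least 500 genes per cell the choroid plexus class had 69 and 2. Levels are given in CPM within a class and a library, with the interval in parentheses and sham before JVL-14 in each pair. Each transcript gives 1 tag at its 3' end, so CPM was not divided by gene length.

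The arachnoid barrier class was first checked against its markers. Clusters 29 and 14, with 223 and 62 and with 145 and 73 cells in sham and JVL-14, matched that marker list best, and they carried Gjb6 (589.9 and 733 CPM), Gjb2 (293 and 275 CPM), Cldn11 (363 and 447 CPM) and Crabp2 (89.4 and 51.0 CPM). Markers that define the barrier layer were found in few cells: Dpp4 had a UMI in 4 and 0 cells, Cdh1 in 13 and 4, Krt8 in 0 and 1 and Krt18 in 0 and 1. Only 2 of the 503 cells had UMIs of at least 2 of these 4 genes, against 36 of 80 choroid plexus cells, which carry the keratins. Cdh1 was nevertheless higher than in fibroblasts, at 5.79 and 10.9 CPM against 0.343 and 1.46, and so were Gjb6, Gjb2 and Cldn11. Of the other 3 markers, Klf5 was higher, at 22.4 and 24.3 CPM against 10.5 and 9.97. Aldh1a2 was far lower than in fibroblasts, at 1.09 and 3.64 CPM against 114 and 96.3. Wnt6 was lower in sham, at 1.81 CPM against 8.35, and level in JVL-14, at 3.64 CPM against 3.65. Dpp4 was lower too, at 1.45 and 0 CPM against 5.72 and 1.46. Crabp2 was higher in sham alone, against 41.4 and 54.0 CPM in fibroblasts. The same cells held the collagen transcripts Col1a1 (1534 and 1414 CPM, against 3159 and 3629.9 CPM in fibroblasts) and Col1a2 (2047 and 1989 CPM, against 3692 and 4366 CPM). All 8 fibroblast markers were lower than in fibroblasts in both libraries, Dcn at 285 and 467 CPM against 7022 and 6583, Lum at 35.8 and 38.8 against 1038 and 860.2 and Pdgfra at 18.8 and 14.6 against 147 and 109.9. With Dpp4 and the keratins nearly absent, the label of an arachnoid barrier was not kept, and the cells are called Gjb6 Ccn3 cells, after 2 of their leading genes. Their number, 368 and 135, depended on the processing, from 254 and 67 at a 5% limit on mitochondrial UMIs to 579 and 206 at a finer clustering.

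Gjb6 Ccn3 cells held the highest summed transporter level of any class compared between the libraries, 4648 and 4418 CPM in sham and JVL-14, against 2788 and 2663 CPM in fibroblasts and 1172 and 1110.1 CPM in macrophages. Of 22 transporters with at least 20 UMIs in both libraries, 9 stood at least 5-fold above all other retained cells, pooled, in each library. A single other class could still hold as much, as blood endothelial cells did for Abcg2 (below). The 9 were Slc4a10, Slc47a1, Slc16a9, Slc16a13, Slc6a14, Slco4a1 and the pumps Abcg2, Abcb1a and Abcc4. Over all genes the share past that fold in Gjb6 Ccn3 cells was 2.08%. With every cell thinned to 1000 UMIs, which leaves fewer UMIs per gene, 5 of the members still met both limits. The share of all genes that did so after thinning was not computed. The 9 came from 6 of the 9 roles into which 108 of the members were sorted, from bicarbonate and cation transport to drug efflux. Clusters are described here and not tested, and no transporter was used to draw them.

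**Figure D1:**
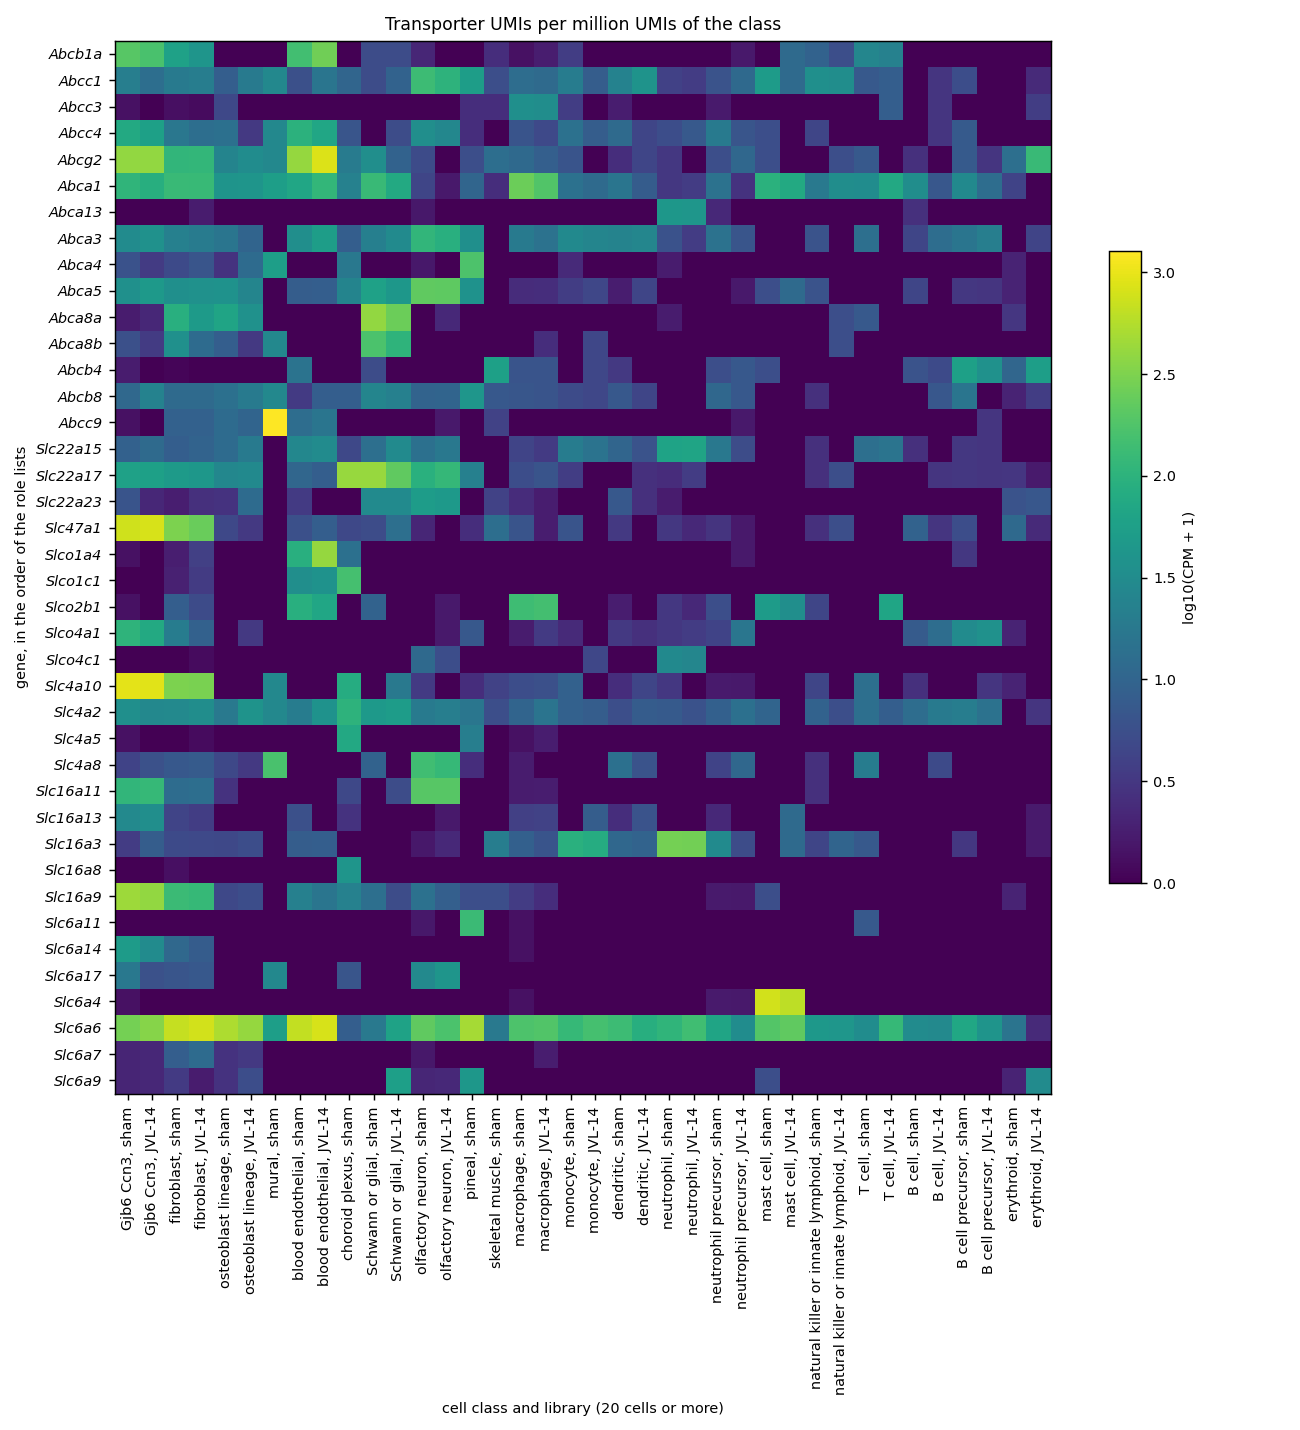
Levels of 40 transporters, in rows ordered by role, across 38 columns of cell class and library with at least 20 cells each; colour shows log10(CPM + 1). The 2 Gjb6 Ccn3 columns are brightest for Slc4a10 (939 and 929.5 CPM) and Slc47a1 (747 and 823 CPM), whereas Slco1a4 is brightest in the endothelial columns, Slco1c1 in choroid plexus, Abcc9 in mural cells and Slc6a4 in mast cells.

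Slc4a10, a sodium-driven bicarbonate carrier known from the choroid plexus epithelium, was the leading transporter of Gjb6 Ccn3 cells, at 939 CPM (903 to 976) in sham and 929.5 CPM (865 to 998) in JVL-14. It stood 7.17-fold and 9.73-fold above the other cells of the same library. After each cell was thinned to 1000 UMIs, 53.1% and 54.8% of the cells had a UMI of Slc4a10 in sham and JVL-14 (86.7% and 80.0% unthinned, at medians of 5991 and 3786 UMIs), and 18 and 9 cells were too shallow to be thinned. In B cells, which should lack it, the thinned share was 0% and 0% (0.588% and 0% unthinned, at medians of 2786 and 2787 UMIs). Slc47a1 gave thinned shares of 47.7% and 44.4% (82.1% and 71.9% unthinned) against 0.606% and 0% in B cells (2.94% and 0.614% unthinned), and Abcg2 29.7% and 30.2% (73.4% and 63.0% unthinned) against 0% and 0% (0.588% and 0% unthinned). These shares lay far above those in B cells, and they were alike in the 2 libraries. Free RNA was not measured, and the source of the UMIs in B cells was not tested.

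Promoter sequence from RefSeq (build GRCm38.p6, not the build of the counts) is shown for 3 of these 9 members with few listed starts, Slc4a10, Slc16a9 and Abcb1a, and for contrast for Slco1a4, whose UMIs lay mainly in endothelial cells. Each line gives the 250 bases before a listed start, 5′ to 3′ on the gene's strand, with GC boxes (GGGCGG) and TATA boxes (TATAAA), searched on both strands, in capitals. Of 32851 such windows in the table, 32.7% held a GC box and 12.4% a TATA box, and of the 124 windows of 101 transporters 30.6% and 12.1%. Counts at the 3' end do not tell which start was used, so both starts of Slc4a10 are given.
Slc4a10, first start (chr2:62046265-62046514, plus strand): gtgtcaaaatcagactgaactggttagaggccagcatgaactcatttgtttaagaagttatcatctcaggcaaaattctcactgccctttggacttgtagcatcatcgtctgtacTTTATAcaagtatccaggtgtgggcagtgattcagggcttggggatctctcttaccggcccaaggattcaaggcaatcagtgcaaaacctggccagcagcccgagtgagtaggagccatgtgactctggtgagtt
Slc4a10, later start (chr2:62147628-62147877, plus strand): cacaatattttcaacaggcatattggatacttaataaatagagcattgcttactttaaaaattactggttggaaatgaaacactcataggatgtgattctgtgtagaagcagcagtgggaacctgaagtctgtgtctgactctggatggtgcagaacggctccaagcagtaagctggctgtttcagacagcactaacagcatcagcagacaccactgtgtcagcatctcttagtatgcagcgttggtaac
Slc16a9 (chr10:70245026-70245275, plus strand): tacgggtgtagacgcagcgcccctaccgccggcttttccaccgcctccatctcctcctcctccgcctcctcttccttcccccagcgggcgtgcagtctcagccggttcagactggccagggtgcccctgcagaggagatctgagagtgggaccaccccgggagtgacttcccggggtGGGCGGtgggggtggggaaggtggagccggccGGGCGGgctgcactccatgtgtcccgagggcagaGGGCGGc
Abcb1a (chr5:8566841-8567090, plus strand): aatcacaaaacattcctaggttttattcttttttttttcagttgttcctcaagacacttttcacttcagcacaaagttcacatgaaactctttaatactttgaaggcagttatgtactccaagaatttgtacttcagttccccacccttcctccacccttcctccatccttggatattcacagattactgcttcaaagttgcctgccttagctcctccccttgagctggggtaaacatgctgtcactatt
Slco1a4 (chr6:141856221-141856470, minus strand): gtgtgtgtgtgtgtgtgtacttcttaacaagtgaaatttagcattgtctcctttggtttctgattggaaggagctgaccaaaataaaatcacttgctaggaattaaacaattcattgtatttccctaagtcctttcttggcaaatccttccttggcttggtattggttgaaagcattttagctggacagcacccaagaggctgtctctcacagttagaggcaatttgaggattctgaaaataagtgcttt
The Slc16a9 window held 3 GC boxes and the first Slc4a10 window 1 TATA box on the opposite strand, and neither motif occurred in the other 3 windows. GC boxes also occurred in windows not printed here, 3 in a window of Abcc4, 2 and 4 in windows of Abcg2 and 4 in a window of Slco4a1. The remaining windows of these genes and that of Slc6a14 held neither motif. The Slc16a9 window had a GC content of 70.4%, the Slc4a10 windows 47.6% and 42.8%, Abcb1a 40.4% and Slco1a4 39.2%, against a median of 52.4% over all windows. A match is a string of letters only, and no binding was measured.

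Among organic ion carriers, Slc47a1, which encodes the proton-coupled organic cation extruder MATE1, reached 747 CPM (715 to 779.9) in sham and 823 CPM (762 to 887) in JVL-14 in Gjb6 Ccn3 cells. It was 5.83-fold and 10.3-fold above other cells, and it had UMIs in 302 and 97 of the 368 and 135 cells. Its close relative Slc47a2 had 64 and 37 UMIs in all retained cells and did not pass 6.51 and 8.49 CPM in sham and JVL-14, its levels in Gjb6 Ccn3 cells. The other organic ion carriers of Gjb6 Ccn3 cells were low: the carnitine carrier Slc22a5 was at 19.9 and 25.5 CPM, Slc22a18 at 22.8 and 27.9 CPM and the lipocalin receptor Slc22a17 at 58.6 and 57.0 CPM. Of the 16 organic ion carriers listed, Slc47a1 thus held most of the summed 877 and 964 CPM.

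Drug efflux pumps of Gjb6 Ccn3 cells were led by Abcg2, the breast cancer resistance protein, at 396 CPM (372 to 419.7) in sham and 393 CPM (352 to 438) in JVL-14. Abcb1a, which encodes 1 of the mouse P-glycoproteins, followed at 197 CPM (180.3 to 214) in sham and 161 CPM (135 to 191) in JVL-14, and Abcc4, an exporter of cyclic nucleotides and conjugates, at 75.3 CPM (65.4 to 86.2) in sham and 57.0 CPM (41.9 to 75.8) in JVL-14. The other drug-exporting P-glycoprotein gene, Abcb1b, stood at 5.07 and 1.21 CPM. The Abcb1a and Abcb1b sequences are close, and how reads shared by them were counted was not given in the sources used here, so their split is uncertain. Summed over the 10 pumps listed, Gjb6 Ccn3 cells had 721 CPM (689 to 753) and 655 CPM (601 to 713) in sham and JVL-14, and blood endothelial cells 744 CPM (663 to 831) and 1255 CPM (1072 to 1460.3).

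Monocarboxylate carriers were the next group. Slc16a9, a carnitine carrier, was at 444 CPM (419 to 469) in sham and 393 CPM (352 to 438) in JVL-14, 7.40-fold and 10.3-fold above other cells. Slc16a1, which moves lactate and pyruvate with protons, was at 273 CPM (253 to 293) in sham and 186 CPM (157 to 218) in JVL-14. Slc16a11 stood at 108 and 118 CPM and Slc16a13 at 27.9 and 32.8 CPM. The lactate exporter Slc16a3 was low in the same cells, at 2.53 and 7.28 CPM. Among organic anion transporting polypeptides, Slco4a1, a carrier of thyroid hormones and other organic anions, was the leading gene at 102 CPM (90.5 to 115) in sham and 76.5 CPM (58.7 to 97.8) in JVL-14. The brain capillary carriers were absent or nearly so, with 1 UMI of Slco1a4 in sham and none in JVL-14, and no UMI of Slco1c1. The electrogenic bicarbonate carrier Slc4a4 reached 242 CPM (224 to 261) in sham and 186 CPM (157 to 218) in JVL-14, and Slc6a14, a broad amino acid carrier, 49.6 CPM (41.6 to 58.6) in sham and 30.3 CPM (19.6 to 44.8) in JVL-14. The taurine carrier Slc6a6 was abundant, at 284 CPM (265 to 305) in sham and 341 CPM (302 to 383) in JVL-14, but other classes held more.

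**Figure D2:**
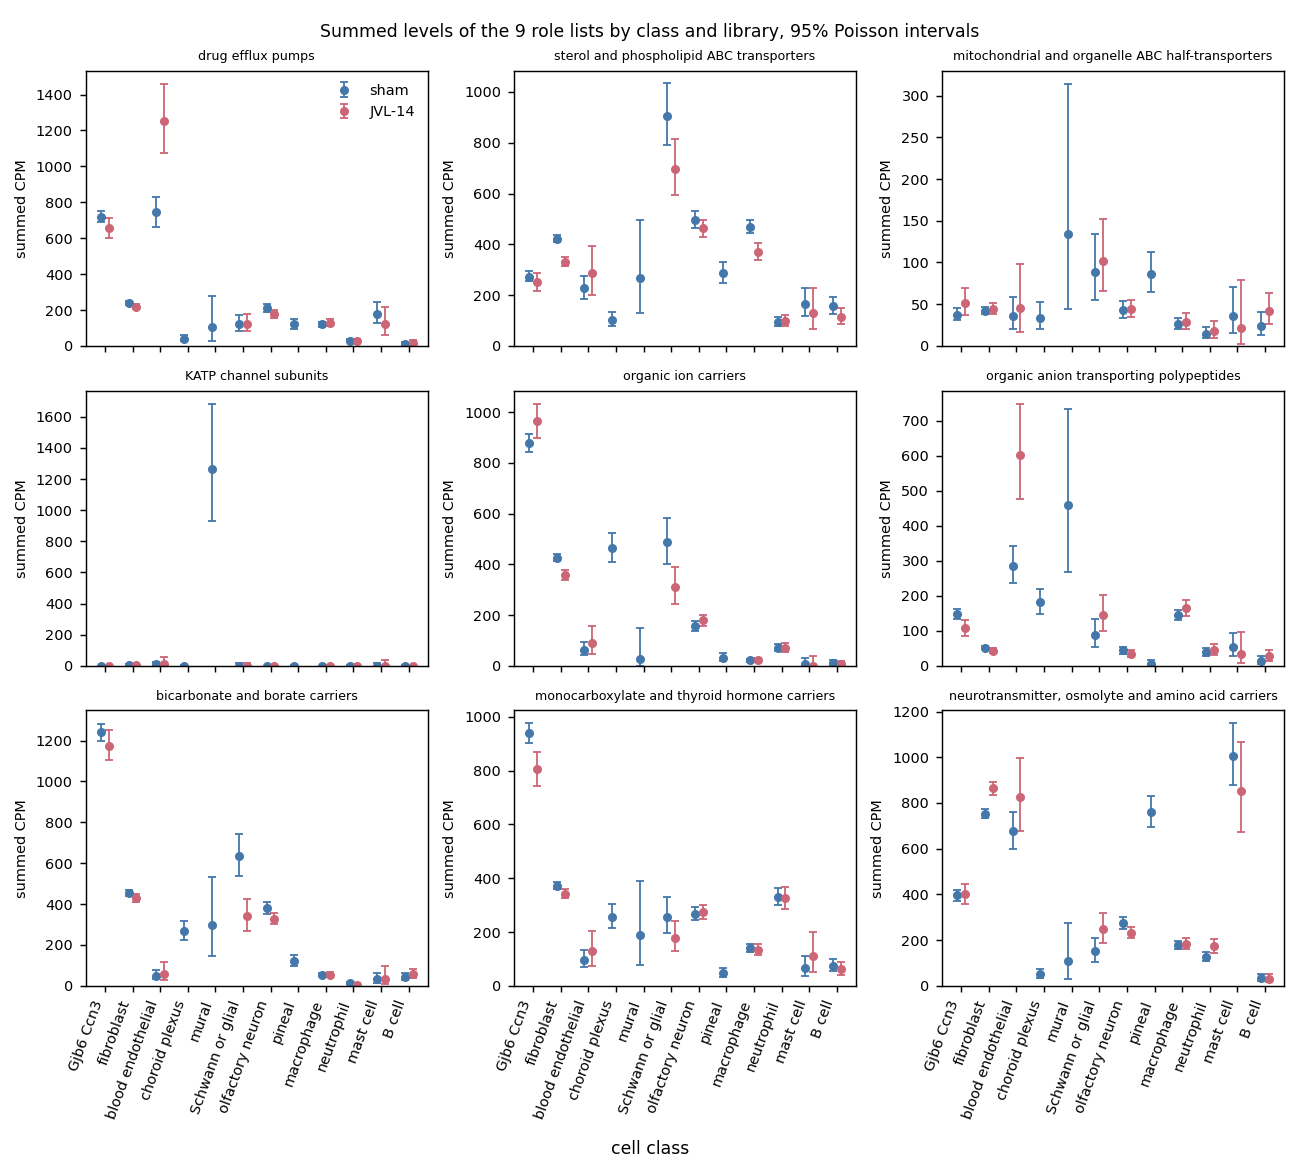
Summed CPM of the genes of each of the 9 role lists (panels) in 12 cell classes, with exact 95% Poisson intervals, for sham (blue) and JVL-14 (red); classes with under 20 cells in a library have no point. Of these classes, Gjb6 Ccn3 cells are highest for bicarbonate (1241 and 1176 CPM), organic ion (877 and 964 CPM) and monocarboxylate carriers (939.9 and 805 CPM).

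Of 46 other barrier transport genes listed beside the members, 17 reached 20 UMIs in both libraries in Gjb6 Ccn3 cells and 4 of them stood at least 5-fold above other cells, where 2.08% of all genes did: Slc26a7, an anion exchanger (445 and 414 CPM), the sulphate carrier Slc26a2 (373 and 249 CPM), the vitamin carrier Slc5a6 (345 and 349 CPM) and the carbonic anhydrase Car13 (232 and 303 CPM). Unlike the members, these genes were not left out of the clustering, and Slc26a2 is among the leading genes of cluster 29, so the count is a description. The capillary glucose carrier Slc2a1 was at 1.45 and 1.21 CPM in these cells and Mfsd2a, a lipid carrier of brain capillaries, had no UMI.

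Of the leading transporters of Gjb6 Ccn3 cells, Slc4a10, Slc47a1, Slc16a9 and Abcg2 were not confined to them but stepped down across the fibroblast clusters named below. The order was similar in both libraries. Slc6a6, also a leading transporter of these cells, instead peaked in fibroblast cluster 7. Slc4a10 was at 988 CPM (949 to 1029) in sham and 1047 CPM (969 to 1130.3) in JVL-14 in cluster 29, and at 636 CPM (559 to 721) in sham and 544 CPM (445 to 659) in JVL-14 in cluster 14. Cluster 30, a fibroblast cluster led by Myoc and Gas1, held a level near that of cluster 14, at 618 CPM (591 to 646) in sham and 655 CPM (614 to 698) in JVL-14. Below it came cluster 0, led by Dcn and Col3a1, at 239.7 and 166 CPM, cluster 21 at 167 and 136 CPM, cluster 7 at 75.9 and 78.0 CPM and cluster 26, led by Apod, at 34.2 and 0 CPM. Slc47a1 followed the same order, from 781 and 898 CPM in cluster 29 through 548 and 457 in cluster 30 to 152 and 131 in cluster 7 and 75.3 and 0 in cluster 26. The intervals of clusters 14 and 30 overlapped for both genes in each library. Those of clusters 0 and 21 overlapped for Slc47a1 in each library and for Slc4a10 in JVL-14 alone. An unnamed cluster led by Igfbp5 and interferon-induced genes (cluster 24, 107 and 24 cells) lay with clusters 14 and 30, at 564 and 651 CPM of Slc4a10 and 488 and 615 CPM of Slc47a1.

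Abcg2 took the same first steps, from 413 and 437 CPM in cluster 29 through 289.6 and 249 in cluster 14 and 181 and 199.6 in cluster 30 to 64.0 and 64.5 in cluster 0, and was then level, at 59.9 and 59.1 in cluster 7. Slc16a9 did the same, from 472 and 421 CPM in cluster 29 to 236 and 226 in cluster 30, 80.1 and 60.3 in cluster 0 and 65.0 and 48.5 in cluster 7. Abcb1a was steeper, from 215 and 184 CPM in cluster 29 through 82.8 and 88.1 in cluster 14 and 124 and 77.6 in cluster 30 to 7.67 and 4.11 in cluster 7. Clusters 14 and 30 changed order for Abcb1a between the libraries. Slco4a1 was at 115 and 90.3 CPM in cluster 29 and 34.4 and 20.1 in cluster 30. Cells of cluster 14 were shallow, with medians of 2342 and 2134 UMIs against 10436 and 9589 in cluster 29, and the part of depth in the step between the 2 clusters was not tested.

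**Figure D3:**
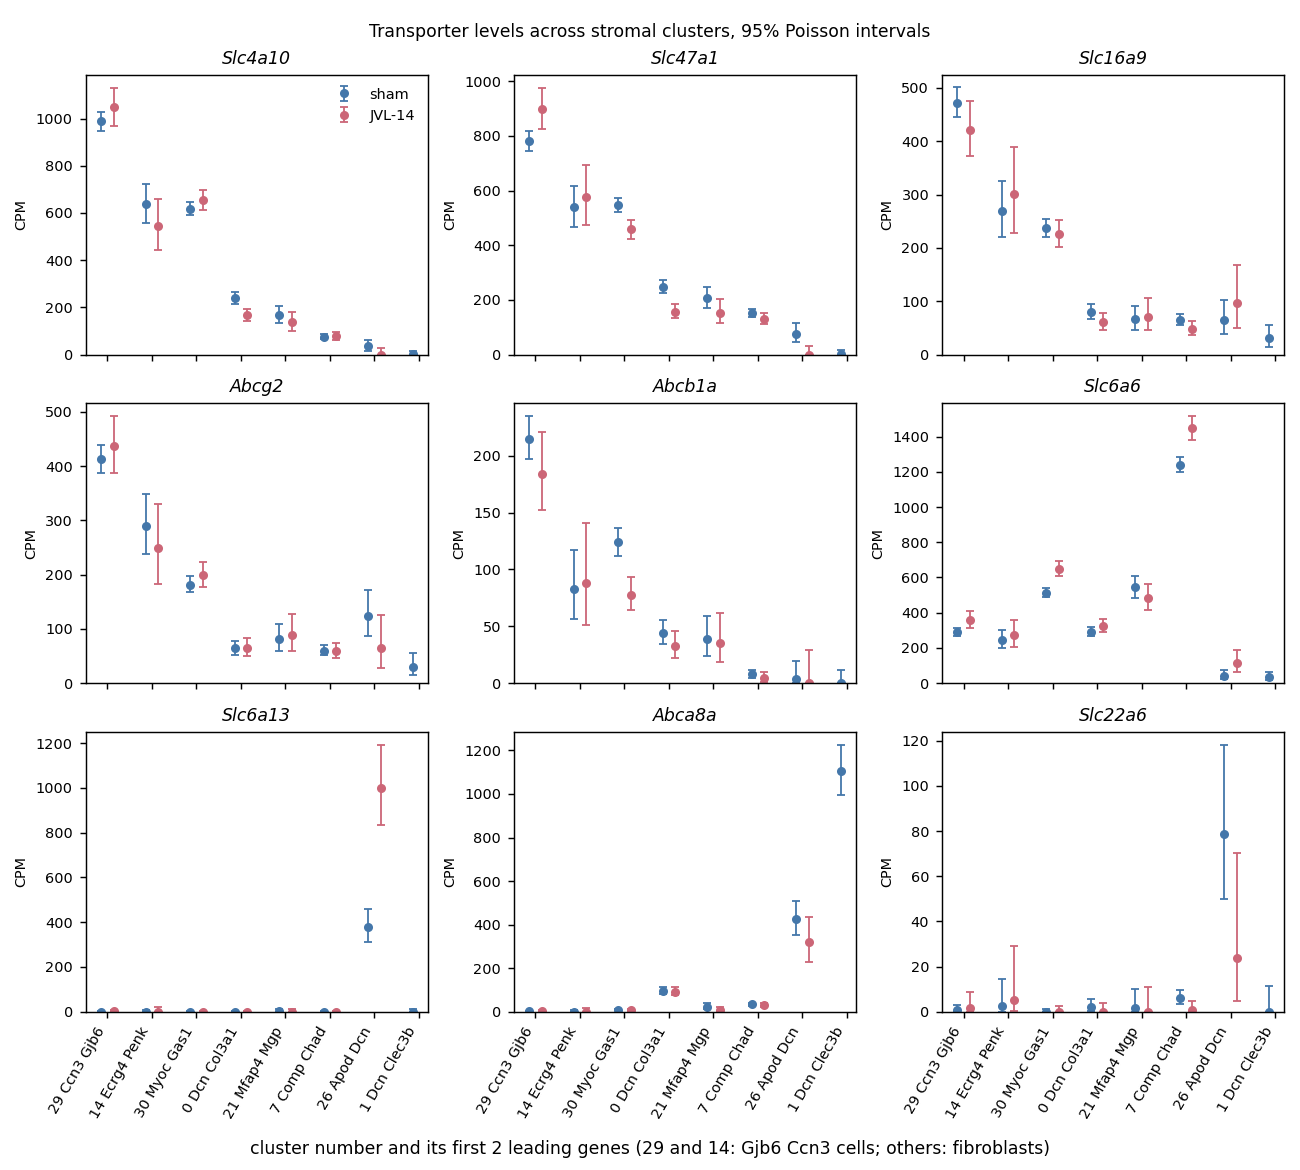
CPM of 9 transporters (panels) in 8 clusters of Gjb6 Ccn3 cells and fibroblasts, with exact 95% Poisson intervals, for sham (blue) and JVL-14 (red); cluster 1 has 3 JVL-14 cells and no JVL-14 point. Slc4a10, Slc47a1, Slc16a9, Abcg2 and Abcb1a are highest in cluster 29 at the left, Slc6a6 peaks in cluster 7 (1240.0 and 1447 CPM), and Slc6a13 and Slc22a6 peak in cluster 26.

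Other fibroblast clusters were marked by other carriers. Slc6a6, the carrier that takes up taurine, was the most abundant transporter of the class, at 669 CPM (652 to 686) in sham and 776 CPM (749 to 803) in JVL-14, and peaked in cluster 7, led by Comp and Chad, at 1240.0 CPM (1199 to 1282) in sham and 1447 CPM (1379.9 to 1516) in JVL-14. The same gene stood at 41.1 and 112 CPM in cluster 26 and at 36.3 CPM in the sham cells of cluster 1. Cluster 1, with Clec3b, Ccl11 and Pi16 among its leading genes, was instead marked by 2 lipid transporters of the Abca8 group, Abca8a at 1106 CPM (995 to 1225) in sham and Abca8b at 579 CPM (499 to 667) in sham, and it held 55 sham but only 3 JVL-14 cells. Abca8a, Abca8b, Abca9 and Abca6 are close copies, so the split between them is uncertain.

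Cluster 26, led by Apod, Dcn and Ptgds, held most fibroblast UMIs of Slc6a13, the GABA and taurine carrier GAT2, at 380.1 CPM (313 to 458) in sham and 1000 CPM (832 to 1191) in JVL-14. It also held the organic anion carrier Slc22a6 (OAT1) at 78.8 CPM (49.9 to 118) in sham and 24.0 CPM (4.95 to 70.1) in JVL-14 and the proline carrier Slc6a20a at 116 CPM (80.6 to 163) in sham and 0 CPM (0 to 29.5) in JVL-14, with Abca9 at 267 and 288 CPM and Abca6 at 147 and 88.0 CPM. Its 34 Slc6a20a UMIs lay in 6 sham cells. The other organic anion carrier of this kind, Slc22a8 (OAT3), had 3 and 5 UMIs in cluster 26, too few for a comparison. Over the whole fibroblast class, 3 of 49 transporters stood at least 5-fold above all other cells in both libraries, among them Abca8a (88.9 and 48.6 CPM) and the proline carrier Slc6a7 (7.44 and 11.2 CPM), where 3.75% of all genes did.

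There were 168 and 46 blood endothelial cells in sham and JVL-14, below the 50 per library required for a comparison, and their levels are given side by side. They shared the pumps Abcg2, Abcb1a and Abcc4 with Gjb6 Ccn3 cells, and the taurine carrier Slc6a6. Of Slc4a10, Slc47a1 and Slc16a9 they had far less or none. Abcg2 was at 412 CPM (353 to 479) in sham and 879 CPM (727 to 1054) in JVL-14, Abcb1a at 143 CPM (109 to 184) in sham and 270.5 CPM (189 to 374) in JVL-14 and Abcc4 at 97.7 CPM (70.1 to 133) in sham and 67.6 CPM (30.9 to 128) in JVL-14, whereas Slc4a10 had no UMI, Slc47a1 was at 4.77 and 7.51 and Slc16a9 at 21.4 and 15 CPM. The taurine carrier Slc6a6 was at 655 CPM (580.2 to 738) in sham and 819 CPM (673 to 988) in JVL-14. Slco1a4, an organic anion carrier of mouse brain capillaries, was the only 1 of 4 transporters that passed 5-fold over other cells in both libraries (18.3% of all genes did), at 90.6 CPM (64.1 to 124) in sham and 413 CPM (311 to 538) in JVL-14.

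Only some endothelial cells carried the capillary carriers, and the mix of clusters differed. Cluster 15, with 97 of 168 sham and 43 of 46 JVL-14 cells, held Slco1a4 at 123 CPM (87.1 to 169) in sham and 433 CPM (326 to 563) in JVL-14, but its UMIs lay in 9 and 13 cells, and the 5 cells with most held 84.2% and 83.6% of them. Slco1c1, which carries thyroxine, had 14 and 5 UMIs there, in 2 and 2 cells. Slc2a1 (178 and 425 CPM) and Mfsd2a (38.9 and 55.1 CPM), known from brain capillaries, were in the same cluster. Cluster 27, led by Fabp4, Aqp1 and Gpihbp1, with 71 sham and 3 JVL-14 cells, had no UMI of Slco1a4 or Mfsd2a, yet had Abcg2 at 279.7 CPM (190.1 to 397) in sham, Abcb1a at 162 CPM (96.3 to 257) in sham and Abcb1b at 153 CPM (89.4 to 246) in sham. Abcg2 in cluster 15 stood at 459.9 CPM (387 to 542) in sham and 889 CPM (733 to 1069) in JVL-14, and the 5 cells with most UMIs held 27.5% and 40.7% of it. With Slco1a4 held by so few cells, the higher JVL-14 level was not tested.

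Choroid plexus cells, all 80 of them from the sham library, carried another set. Of 7 transporters with at least 20 UMIs, 6 stood at least 5-fold above other sham cells (8.33% of all genes did). Slc22a17, a receptor for lipocalin, was highest at 423 CPM (370.1 to 482) in sham. The thyroxine carrier Slco1c1 was at 155 CPM (124 to 192) in sham. The anion exchanger Slc4a2 was at 99.8 CPM (75.0 to 130.2) in sham, the apical bicarbonate carrier Slc4a5 at 73.9 CPM (52.8 to 101) in sham and the lactate carrier Slc16a8 at 40.7 CPM (25.5 to 61.5) in sham. Slc4a10, the seventh gene, reached 81.3 CPM (59.1 to 109) in sham, below its level in Gjb6 Ccn3 cells and in fibroblasts. Abcg2 was at 18.5 CPM, Slc47a1 at 3.70 CPM and Slc6a6 at 7.39 CPM. The exact interval for 0 choroid plexus cells among 2471 in JVL-14 reaches up to 0.149%.

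Of mural cells, sham held 22 and JVL-14 only 16, too few for a level to be given. They were marked by Abcc9, the sulphonylurea receptor subunit of vascular KATP channels, at 1266 CPM (930.4 to 1684) in sham, 417-fold above other sham cells. It was the only transporter of this class with 20 UMIs (23.8% of all genes passed the fold). The related subunit Abcc8 had no UMI in any retained cell.

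The neural and glial cells of the preparation each had carriers of their own. Schwann or glial cells held Slc4a4 at 562 CPM (471 to 666) in sham and 234 CPM (176 to 305) in JVL-14, Slc22a17 at 419.6 CPM (341 to 510.3) in sham and 221 CPM (165 to 290.2) in JVL-14 and Abca8a at 399 CPM (322 to 487) in sham and 251 CPM (191 to 324) in JVL-14, and 3 of 5 transporters passed 5-fold (Abca8a, Abca8b and Slc22a17, against 12.8% of all genes). Olfactory neurons passed that fold for 7 of 23 transporters (17.6% of all genes), led by the lipid transporter Abca5 at 219 CPM (198 to 242) in sham and 212 CPM (189 to 236) in JVL-14 and Slc16a11 at 196 CPM (175 to 218) in sham and 194 CPM (173 to 217) in JVL-14, with the bicarbonate carrier Slc4a8 at 140.2 and 118 CPM, Abcc1, Abca3, Slc22a23 and the vesicular amino acid carrier Slc6a17. Pineal cells, from sham alone once doublets were removed, held the retinoid flippase Abca4 at 169 CPM (139 to 204) in sham, the GABA carrier Slc6a11 at 131 CPM (105 to 162) in sham and the glycine carrier Slc6a9 at 43.1 CPM (28.7 to 62.4) in sham, and 4 of 13 passed (13.9%), Abcb8 the fourth. An unnamed cluster of 47 and 13 cells led by Mgarp and Edn3 also held Abca4, at 445 CPM (355 to 552) in sham. Skeletal muscle, with only 3 JVL-14 cells, had the phospholipid flippase Abcb4 at 56.3 CPM (39.6 to 77.6) in sham, the 1 transporter tested (16.6% of all genes passed).

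Among blood-derived cells, macrophages led for Abca1, the cholesterol exporter, at 251 CPM (233 to 271) in sham and 180.2 CPM (158 to 205) in JVL-14, and 2 of 13 transporters passed 5-fold (4.92% of all genes), Slco2b1 at 137 CPM (124 to 152) in sham and 151 CPM (130.2 to 173) in JVL-14 and Abcc3 at 33.8 and 31.9 CPM. Neutrophils held the lactate exporter Slc16a3 at 285 CPM (258 to 315) in sham and 276 CPM (240.5 to 315) in JVL-14, and 4 of 7 passed (9.5%), with Slc22a15 at 61.4 and 64.2, Abca13 at 42.4 and 41.6 and Slco4c1 at 28.5 and 25.2 CPM. Mast cells carried the serotonin transporter Slc6a4 at 782 CPM (671 to 908) in sham and 613 CPM (463 to 796) in JVL-14, while all other cells together had 3 and 1 UMIs of it, and 1 of 2 transporters passed (18.5% of all genes). Natural killer or innate lymphoid cells held Slc6a13 at 90.7 CPM (68.0 to 119) in sham and 73.1 CPM (41.8 to 119) in JVL-14, the highest level of that gene outside cluster 26. B cells had low summed levels (397 and 396 CPM), led by the cholesterol exporter Abcg1 at 78.8 and 61.5 CPM. No transporter passed 5-fold in B cells (0 of 2 tested, 5.48% of all genes), B cell precursors (0 of 3, 7.4%), dendritic cells (0 of 4, 3.47%), monocytes (0 of 3, 5.94%), osteoblast lineage cells (0 of 2, 4.91%), erythroid cells (0 of 1, 10.0%) or neutrophil precursors (0 of 7, 5.23%). In T cells (8.53% of all genes) and natural killer or innate lymphoid cells (9.48%) no transporter had enough UMIs to be counted.

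Sham and JVL-14 were compared within 13 classes, those of 50 or more cells in both libraries, as the ratio of the JVL-14 to the sham CPM. Different clusters held most Gjb6 Ccn3 cells in each library, cluster 29 in sham (223 of 368) and the shallower cluster 14 in JVL-14 (73 of 135), so the ratio with the 2 clusters weighted alike is added for the genes named. In Gjb6 Ccn3 cells the summed level of all 131 transporters had a ratio of 0.951 (0.916 to 0.986). Of 37 transporters with at least 30 UMIs, 3 were at least 1.5-fold higher in JVL-14, against 8.34% of all genes, and 6 at least 1.5-fold lower, against 10.2%. The median log2 ratio of the 37 was -0.17, and that of all 8589 genes 0.02. The summed ratio was 1.03 under a coarser clustering and 0.987 with clusters weighted alike, so its direction was not stable. The leading carriers were close to 1: Slc4a10 had a ratio of 0.990 (0.912 to 1.07), Abcg2 of 0.994 (0.875 to 1.13), Slc47a1 of 1.10 (1.01 to 1.20) and Slc16a9 of 0.886 (0.782 to 1.0). With clusters weighted alike these 4 were at 1.04, 1.04, 1.14 and 0.915, so that Slc4a10 and Abcg2 crossed 1. The lactate carrier Slc16a1 was lower, at 0.681 (0.569 to 0.812), and 0.697 with clusters weighted alike, short of the 1.5-fold limit.

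By role in Gjb6 Ccn3 cells, the summed organic anion transporting polypeptides had a ratio of 0.721 (0.566 to 0.910), with all 3 measured genes below 1, Slco4a1 at 0.749 (0.561 to 0.987) among them (0.807 with clusters weighted alike). Monocarboxylate carriers had 0.856 (0.785 to 0.933), with 3 of 8 measured genes above 1, 5 below and 1 of these past the fold. Drug efflux pumps had 0.909 (0.825 to 1.0), with all 5 below 1. Of these, Abcc1 alone was past the fold (0.541 with clusters weighted alike), with an interval that held 1. Bicarbonate carriers had 0.948 (0.881 to 1.02), and organic ion carriers 1.10 (1.01 to 1.19). Amino acid and neurotransmitter carriers had 1.01 (0.892 to 1.15), where the abundant Slc6a6 was higher, at 1.20 (1.04 to 1.38) and 1.23 with clusters weighted alike, and the other 3 measured genes lower, which gave a median log2 ratio of -0.87. Sterol and phospholipid transporters also split, with a summed ratio of 0.921 (0.785 to 1.07) and a median log2 ratio of 0.28 over 5 genes. The other barrier transport genes had 0.991 (0.967 to 1.02), with 1 of 22 past the fold upward (8.34% of all genes) and 2 downward (10.2%).

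In these cells 4 transporters were past 1.5-fold with an interval that left out 1. The creatine carrier Slc6a8 was at 39.8 CPM in sham (110 UMIs in 88 cells) and 19.4 CPM in JVL-14 (16 UMIs in 16 cells), a ratio of 0.488 (0.269 to 0.828). Slc6a14 was at 49.6 CPM in sham (137 UMIs in 60 cells) and 30.3 CPM in JVL-14 (25 UMIs in 13 cells), a ratio of 0.612 (0.383 to 0.942). Slc6a17 was at 16.3 CPM in sham (45 UMIs in 34 cells) and 4.85 CPM in JVL-14 (4 UMIs in 3 cells), a ratio of 0.298 (0.0779 to 0.818). The mitochondrial half-transporter Abcb8 was higher, at 10.1 CPM in sham (28 UMIs in 24 cells) and 23.1 CPM in JVL-14 (19 UMIs in 17 cells), a ratio of 2.28 (1.20 to 4.22). With clusters weighted alike they were at 0.466, 0.616, 0.298 and 2.46 in the same order. All 4 are low genes whose ratios varied with the processing, from 0.126 to 0.760 for Slc6a8, 0.0864 to 0.375 for Slc6a17 and 1.33 to 2.57 for Abcb8, and Slc6a14 turned to 1.11 when cells were thinned to 1000 UMIs.

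**Figure D4:**
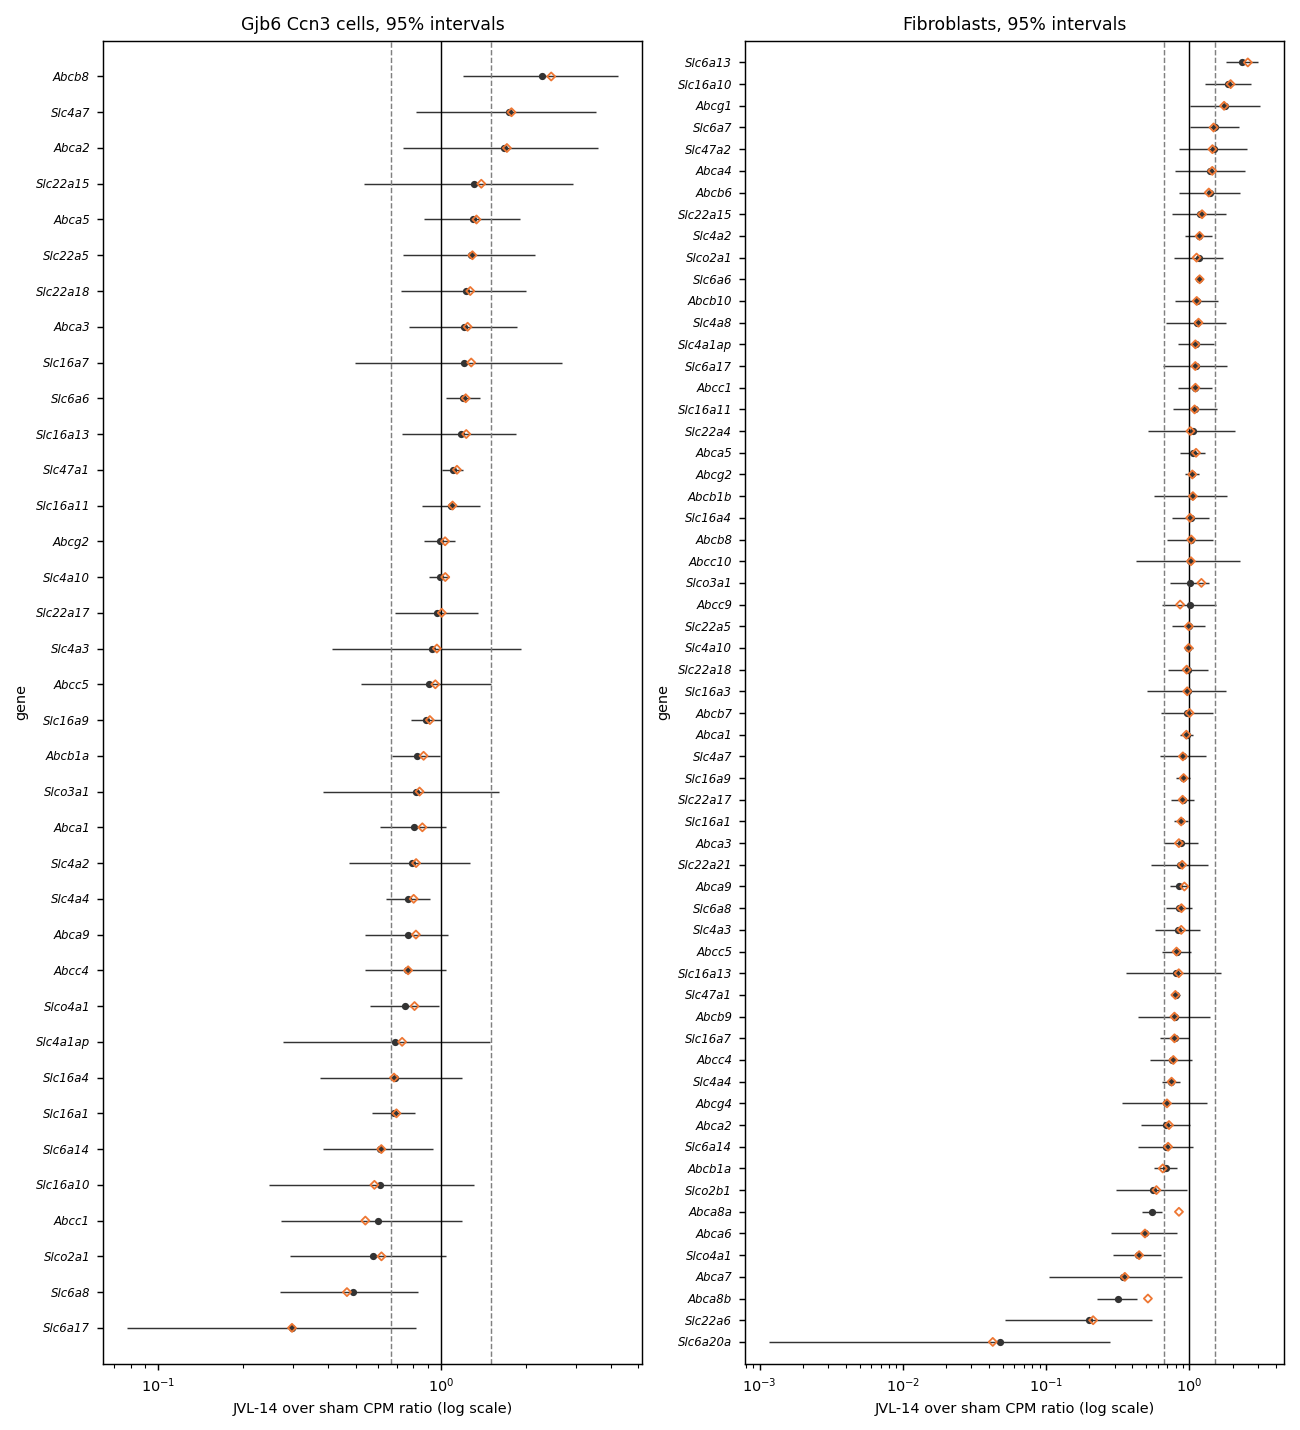
JVL-14 over sham CPM ratio on a log axis for transporters with at least 30 UMIs, 36 in Gjb6 Ccn3 cells (left) and 60 in fibroblasts (right). Points carry exact 95% intervals, orange diamonds give the ratio with clusters weighted alike in both libraries, and dashed lines mark 1.5-fold; Slc6a13 is at 2.56 and Abca8a at 0.845 by the diamonds.

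In fibroblasts, with 1325 and 646 cells, the summed ratio was 0.955 (0.934 to 0.977). Of 61 transporters, 4 were at least 1.5-fold higher (5.23% of all genes) and 8 at least 1.5-fold lower (6.44%), with a median log2 ratio of -0.05 against 0.03 over all 11917 genes. Slc6a6 was slightly higher, with a ratio of 1.16 (1.11 to 1.21), and Slc47a1 slightly lower, at 0.801 (0.744 to 0.861). Abcb1a had 0.683 (0.570 to 0.816), Slc4a10 0.985 (0.920 to 1.05) and Abcg2 1.05 (0.937 to 1.17). By role, sterol and phospholipid transporters had the lowest summed ratio, 0.787 (0.739 to 0.838), with 9 of 12 measured genes below 1 and 4 of these past the fold, and amino acid carriers the highest, 1.15 (1.10 to 1.20).

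With clusters weighted alike, Abca8a was nearer to even between the libraries, whereas Abca8b and Abca6 stayed lower in JVL-14. Abca8a was at 88.9 CPM in sham (777 UMIs in 278 cells) and 48.6 CPM in JVL-14 (200 UMIs in 110 cells), a ratio of 0.547 (0.466 to 0.640), and Abca8b at 35.4 CPM in sham (309 UMIs in 122 cells) and 11.2 CPM in JVL-14 (46 UMIs in 30 cells), a ratio of 0.316 (0.227 to 0.432). Cluster 1, where both peak, held 55 sham and 3 JVL-14 cells, and the weighted ratios, which leave cluster 1 out, were 0.845 and 0.513. Within cluster 0 Abca8a was at 96.9 CPM (82.3 to 113) in sham and 92.6 CPM (74.4 to 114) in JVL-14. Abca6 had a ratio of 0.492 (0.282 to 0.819) and 0.489 with clusters weighted alike.

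Of the other large fibroblast differences, 3 lay mainly in cluster 26. Slc6a13 was at 13 CPM in sham (114 UMIs in 27 cells) and 30.4 CPM in JVL-14 (125 UMIs in 31 cells), a ratio of 2.33 (1.79 to 3.03) and 2.56 with clusters weighted alike. Within cluster 26, which had 75 sham and 46 JVL-14 cells, 24 and 31 cells had a UMI, and the 5 highest held 51.4% and 46.4% of them. Slc22a6 was at 4.92 CPM in sham (43 UMIs in 20 cells) and 0.973 CPM in JVL-14 (4 UMIs in 4 cells), a ratio of 0.198 (0.0515 to 0.544), which rose to 0.882, within 1.5-fold, when cells were thinned to 1000 UMIs. Slc6a20a was at 5.15 CPM in sham (45 UMIs in 17 cells) and 0.243 CPM in JVL-14 (1 UMI in 1 cell), a ratio of 0.0472 (0.00117 to 0.277), and 5 cells held 73.3% of its sham UMIs. Without the 5 cells richest in it in each library, no JVL-14 UMI of Slc6a20a was left. With 3 UMIs put in place of none, its ratio had an upper limit of 0.537. Elsewhere in the class, Slco4a1 was lower at 0.438 (0.293 to 0.636), Slco2b1 at 0.556 (0.305 to 0.959) and the lipid transporter Abca7 at 0.343 (0.104 to 0.889). Slco2b1 ranged from 0.293 to 0.868 over the alternatives and Abca7 from 0.267 to 0.673, so both also fell within 1.5-fold. The aromatic amino acid carrier Slc16a10 was higher at 1.86 (1.28 to 2.70), and so was the cholesterol exporter Abcg1 at 1.78 (1.02 to 3.10). The counts in cluster 26 rest on so few cells that chance in sampling them is not covered by the intervals.

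In each of the remaining classes fewer transporters could be measured. In macrophages 2 of 21 transporters were past 1.5-fold upward (6.73% of all genes) and none downward (9.0%), and the summed ratio was 0.947 (0.889 to 1.01). In olfactory neurons 1 of 25 was higher, the monocarboxylate carrier Slc16a7 at 2.67 (1.64 to 4.49), and 1 lower, Slc16a9, against 6.63% and 7.79% of all genes. The interval of Slc16a9 held 1. Schwann or glial cells, with 88 and 75 cells, had 1 of 10 higher (19.4%), Slco3a1 at 1.81 (1.01 to 3.37), and 5 lower (16.8%), among them the bicarbonate carrier Slc4a4 at 0.416 (0.298 to 0.574), whose 134 and 55 UMIs lay in 20 and 9 cells, Slc22a17 at 0.527 (0.370 to 0.745) and Abca8a at 0.630 (0.447 to 0.881). Their clusters were mixed differently, cluster 28 with 64 sham and 39 JVL-14 cells and cluster 32 with 24 and 36, and with clusters weighted alike the 4 ratios were 1.79, 0.437, 0.537 and 0.659. Over all alternatives they ranged from 1.25 to 2.91, 0.108 to 0.685, 0.483 to 0.776 and 0.519 to 0.911, and none of the 4 stayed past 1.5-fold throughout. In dendritic cells Slc6a6 was at 0.665 (0.477 to 0.913), the only 1 of 8 past the fold downward (13.4%), and Abcc1 the only 1 upward (7.92%). The interval of Abcc1 held 1. Of 10 transporters in neutrophils, 2 were higher (13.3%), neither with an interval that left out 1, and none lower (7.55%). B cells had 0 of 5 higher (15.6%) and 1 lower (6.16%), B cell precursors 0 of 6 higher (8.33%) and 2 lower (11.1%), and osteoblast lineage cells 0 of 6 higher (8.49%) and 2 lower (11.4%), all with intervals that held 1. Natural killer or innate lymphoid cells had 0 of 7 past the fold in either direction (8.4% and 14.7%).

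Erythroid cells and neutrophil precursors differed between the libraries as classes. All 8 measured transporters of erythroid cells were at least 1.5-fold higher in JVL-14, as were 91.0% of all genes, with none lower (3.49%), and the class held different clusters: cluster 37 had 12 sham and 77 JVL-14 cells and cluster 36 had 63 and 31. Abcb10, a mitochondrial transporter of developing red cells, was at 20.1 CPM in sham (19 UMIs in 9 cells) and 141 CPM in JVL-14 (211 UMIs in 63 cells), a ratio of 7.02 (4.39 to 11.9) and 1.28 with clusters weighted alike. Abcg2, which exports porphyrins, had 9.96 (5.57 to 19.6) and 2.04. In neutrophil precursors 9 of 16 transporters were at least 1.5-fold lower (17.3% of all genes) and 3 higher (15.1%), led by Slc16a3 at 0.147 (0.0561 to 0.329) and Slco4a1 at 4.74 (1.78 to 15.8). Both moved with the processing, Slc16a3 from 0.0347 to 0.748 and Slco4a1 from 1.42 to 8.62, beyond the 1.5-fold limit and within it. Median UMIs per cell differed there, 16380.0 and 7886. All 7 measured markers of B cell precursors also had UMIs in this cluster, with a summed level of 1809 CPM (1742 to 1877) in sham and 4218 CPM (4118 to 4319) in JVL-14, beside 2772 CPM (2689 to 2857) and 7021 CPM (6892 to 7151) of its own 5 markers. The part of these differences in the transporter ratios was not tested.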

How the data were processed

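Droplet 3' RNA sequencing of mouse dura gave 1 sham and 1 JVL-14 library. The authors deposited filtered matrices of raw UMI counts made with Cell Ranger 8.0.0, per the file headers, on mm39, per the submitters' processing notes; the annotation was not given in the sources used here. Barcodes with at least 200 genes and at most 10% mitochondrial UMIs were kept, and the top 5% of Scrublet scores per library were removed as doublets (280 and 137 barcodes), because the automatic cutoff marked 0.707% and 0.230%. Cells were clustered with scanpy 1.11.5 (2000 variable genes without the transporters, 30 components, 15 neighbours, Leiden resolution 1) and named from marker lists; the limits for naming were set after the data were seen, and 175 and 59 cells stayed unnamed. CPM carries an exact Poisson interval and each ratio an exact conditional binomial interval. No difference was tested, since each group is 1 library. JVL-14 and sham were compared in classes of at least 50 cells per library, for genes with at least 30 UMIs, and called past 1.5-fold; classes were set against all other cells with at least 20 UMIs, called past 5-fold. The ratio scripts were tested on simulated data. Named members are the 5 highest of each barrier-related class (2 in others), those past 5-fold, and those past 1.5-fold with an interval that leaves out 1; others were named after their values were seen. The values of 1 member are not reported here, although it stays in all counts and sums. Members and lists were chosen with earlier results of these data known. The alternatives tried, 14 in all, concern cell filters, doublets, clustering, depth, weighting and count limits.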

Additional observations from a re-analysis of the deposited data

Results flagged for a closer look

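For 3 transporters the classes were past 1.5-fold in opposite directions, each with an interval that left out 1. The share of all genes that did so was not computed, so the count is a description, and the difference between the classes was not tested. Slc16a10, which carries aromatic amino acids, had a JVL-14 over sham ratio of 3.69 in erythroid cells and 1.86 in fibroblasts but 0.523 in neutrophil precursors. Over the alternatives it ranged from 0.555 to 6.77 in erythroid cells and from 0.399 to 1.03 in neutrophil precursors, so the opposition did not hold throughout, and from 1.63 to 4.46 in fibroblasts. Slc16a6, a monocarboxylate carrier, had a ratio of 17.4 in erythroid cells and 0.466 in neutrophil precursors, with ranges of 2.47 to 17.4 and 0.352 to 0.730. Slco4a1 had a ratio of 0.438 in fibroblasts and 4.74 in neutrophil precursors, with ranges of 0.251 to 0.562 and 1.42 to 8.62. In erythroid cells 91.0% of all genes were at least 1.5-fold higher in JVL-14, with a median log2 ratio of 2.73 over all genes. In fibroblasts 5.23% of all genes were higher and 6.44% lower, and in neutrophil precursors 15.1% and 17.3%. The neutrophil precursors had a median UMI count per cell of 16380.0 in sham and 7886.5 in JVL-14. The neutrophil precursor cluster also carried all 7 measured B cell precursor markers, whose levels summed to 1809 CPM (sham) against 4218 (JVL-14). Vpreb3, Igkc and Cd79a were among its leading genes. Its ratios need therefore not be those of a single cell type. The part of these values in the ratios was not tested.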

How the results depend on the processing

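No paired analysis was possible because each group is 1 library and no result comes from a test. In Gjb6 Ccn3 cells the summed JVL-14 over sham ratio of 0.951 turned to 1.03 at Leiden resolution 0.5. It was 0.992 with transporters kept in the clustering, 0.986 without doublet removal, 0.988 at resolution 2, 0.911 with libraries clustered separately, 0.824 without the 5 cells richest in each gene and 0.987 with clusters weighted alike, an alternative chosen after seeing the data. The count of higher members (3) was 5 at resolution 0.5, 5 at a limit of 10 UMIs, 0 at 100 UMIs, 0 after thinning and 1 without the 5 cells. The count of lower members (6) was 3 with transporters kept, 3 without doublet removal, 1 at resolution 0.5, 3 at resolution 2, 13 at 10 UMIs, 2 at 100 UMIs, 2 after thinning and 17 without the 5 cells, which takes a larger share of the smaller library by construction. Members at least 5-fold above other cells (9) numbered 5 after thinning, which leaves fewer UMIs. For these counts neither the number of members measured nor the share of all genes was computed under the alternatives. A change in a count can therefore not be set against all genes.

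In fibroblasts the summed ratio of 0.955 was 0.977 with transporters kept, 0.985 at a 5% mitochondrial limit, 0.977 at resolution 2, 0.892 with separate clustering, 0.984 as a mean over cells, 0.908 without the 5 cells and 0.983 with clusters weighted alike. Higher members (4) numbered 8 at 10 UMIs, 2 after thinning and 7 as a mean over cells, and lower members (8) numbered 14 with separate clustering and 4 at 100 UMIs. Here too the share of all genes was not computed under the alternatives. Of 424 alternative values for 38 single ratios, 344 stayed within the main interval, 71 moved and 9 turned direction: Slc6a14 in Gjb6 Ccn3 cells (1.11 thinned); in erythroid cells Slc22a4 (0.849 at 500 genes per cell), Abcb4 (0.847), Slc16a1 (0.706) and Slc16a10 (0.555) when divided by the median ratio of all genes, and Slc16a1 (0.907) and Slc16a10 (0.789) with clusters weighted alike; and in neutrophil precursors Abca3 (1.40 as a mean over cells) and Slc16a10 (1.03 at 500 genes per cell). Of the 38, 10 stayed past 1.5-fold under every alternative that gave a value, 6 of 10 in fibroblasts, among them Slc6a13 (2.09 to 3.29), Slco4a1 (0.251 to 0.562) and Abca8b (0.219 to 0.513), but 1 of 4 in Gjb6 Ccn3 cells, 1 of 8 in erythroid cells, 1 of 10 in neutrophil precursors and 0 of 4 in Schwann or glial cells. In fibroblasts Slc22a6 ranged from 0.176 to 0.882, Slco2b1 from 0.293 to 0.868 and Slc6a20a from 0.0156 to 0.537. The top of the Slc6a20a range is an upper limit, with no JVL-14 UMI left. Class sizes moved too: Gjb6 Ccn3 cells (368 and 135) numbered 565 and 203 with transporters kept, 577 and 203 without doublet removal, 579 and 206 at resolution 2 and 254 and 67 at the 5% limit, and neutrophil precursors (89 and 134) 46 and 27 at 500 genes per cell. Where no construction is named, the cause was not tested. Depth limits the low genes: 52 of the 131 members had under 30 UMIs.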
